A study of Mus musculus with 30 samples.

Results

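Histone marks, RNA polymerase II and Pu.1 were profiled around 9 genes of the type I interferon response in adult mouse microglia, the resident macrophages of the brain. The genes are Ddx58, Ifih1 and Dhx58 (the RIG-I-like RNA sensors), Stat2 (the only STAT among them), and the interferon-induced effectors Oas1a, Isg15, Ifit1, Ifit3 and Xaf1. A listed region was counted for a gene where it overlapped the gene's RefSeq span extended by 10 kb on mm10, or where its midpoint had an end of that gene as the nearest protein-coding gene end within 100 kb. By this rule the 9 genes, of 21887 protein-coding genes, held 7 of the 22399 listed regions, and 5 of the 9 had a region in any list. Of all protein-coding genes 49.6% had one.

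CUT&Tag, in which an antibody guides a transposase that cuts and tags nearby DNA, was run on about 100000 sorted microglia per genotype from C57BL/6J mice 8 weeks old. Both genotypes carried the tamoxifen-inducible Tmem119-CreERT2 allele and had received tamoxifen on 7 days; Mir137, which encodes miR-137, was wild type in cWT and flanked by loxP sites in cKO. The labels name 30 samples, 3 replicates for each of 2 genotypes and 5 antibodies: H3K27ac (an acetylation found at enhancers and promoters in use), H3K4me3 (a methylation typical of promoters in use), RNA polymerase II (Pol II), its form phosphorylated at serine 5 of the tail (Pol II Ser5P, found near gene starts), and Pu.1 (a myeloid transcription factor). The series text speaks of 4 mice, and no label says whether a replicate was a separate mouse.

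The values analysed are 10 region lists, one for every combination of antibody and genotype, of 44 to 6995 regions. The authors named each list as specific to its genotype. A region missing from a genotype's list therefore does not show that the mark or protein was absent there. None of the lists gives a value per replicate. No difference between genotypes could therefore be set against the spread between replicates, no test was run, and read depth is unknown. By catalogue number, the labels' protocol does not tell the H3K27ac antibody from those to polymerase, nor the H3K4me3 antibody from that to Pu.1. No listed region lay within 10 kb of Mir137 (chr3:118433857-118433929; the nearest was 1074 kb away), so the deletion itself was not read. Of 12 microglia markers 11 had a region in some list (Aif1 did not), against 1 of 6 neuron, 3 of 6 astrocyte, 3 of 6 oligodendrocyte, 4 of 6 endothelial and 2 of 6 blood-derived immune markers. A list of regions that differ cannot show which cell types were present.

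In this pathway, RIG-I (the product of Ddx58) and MDA5 (the product of Ifih1) bind viral RNA in the cytoplasm and signal through the adaptor MAVS, and LGP2 (the product of Dhx58) modulates both. The interferon that follows acts through its receptor and the kinases JAK1 and TYK2 on STAT2, which joins IRF9 in the complex ISGF3. ISGF3 binds the interferon-stimulated response element in the promoters of the genes it induces, several of the sensors and STAT2 among them. In microglia these genes are known for their rise in ageing, infection and neurodegeneration.

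That element is built on GAAA blocks, so the RefSeq promoter windows (GRCm38.p6, 250 bases before to 50 after each start) were searched on both strands for 2 GAAA blocks with any 2 bases between them. Of the 9 genes 8 had a window (Dhx58 did not), and 7 of the 8 held the motif, against 3.44% of all 32851 windows. It was also held by 17 of the 58 interferon-pathway symbols searched, so it is not particular to the 9 genes. The stretches with the matches follow, 5′ to 3′ along the gene, with the motif in capitals (read as TTTC blocks where it lies on the opposite strand). They show that the element's core was present in the window at genes with and at genes without a listed region. The match is a description of the sequence only.

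Isg15, chr4:156200859-156200918, minus strand, positions -100 to -41 from the start: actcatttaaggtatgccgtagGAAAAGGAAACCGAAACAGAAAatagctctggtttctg
Ifit1, chr19:34640769-34640828, plus strand, positions -120 to -61: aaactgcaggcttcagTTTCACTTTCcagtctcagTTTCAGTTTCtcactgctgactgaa
Ifit3, chr19:34583359-34583418, plus strand, positions -170 to -111: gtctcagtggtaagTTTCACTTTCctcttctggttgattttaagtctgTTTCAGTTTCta
Ddx58, chr4:40239809-40239838, minus strand, positions -13 to 17: agcgccctgaggcagTTTCGATTTCctatg
Ifih1, chr2:62646206-62646235, minus strand, positions 21 to 50: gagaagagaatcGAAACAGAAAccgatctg

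The windows before the starts of Oas1a, Stat2 and Xaf1 are shown whole. These are 3 of the 4 members with a cKO H3K4me3 region near the start, and for the other, Ddx58, the shorter stretch given above is shown. In Oas1a a second motif, TTCNNNGAA (a form of the gamma-activated site, a STAT motif), is in capitals too. It lies at -98 to -90, with the overlapping GAAA pairs at -20 to -5.

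Oas1a, chr5:120907526-120907775, minus strand, positions -250 to -1: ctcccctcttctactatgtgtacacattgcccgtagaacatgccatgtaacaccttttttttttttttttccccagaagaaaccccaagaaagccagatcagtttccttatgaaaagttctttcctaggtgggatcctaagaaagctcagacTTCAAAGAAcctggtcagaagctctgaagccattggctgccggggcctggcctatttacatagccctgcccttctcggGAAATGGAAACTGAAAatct
Stat2, chr10:128270248-128270497, plus strand, positions -250 to -1: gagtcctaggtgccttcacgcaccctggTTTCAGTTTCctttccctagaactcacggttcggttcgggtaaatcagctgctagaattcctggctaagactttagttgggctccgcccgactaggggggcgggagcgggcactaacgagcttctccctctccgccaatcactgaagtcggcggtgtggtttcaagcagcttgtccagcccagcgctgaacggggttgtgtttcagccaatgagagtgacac
Xaf1, chr11:72301379-72301628, plus strand, positions -250 to -1: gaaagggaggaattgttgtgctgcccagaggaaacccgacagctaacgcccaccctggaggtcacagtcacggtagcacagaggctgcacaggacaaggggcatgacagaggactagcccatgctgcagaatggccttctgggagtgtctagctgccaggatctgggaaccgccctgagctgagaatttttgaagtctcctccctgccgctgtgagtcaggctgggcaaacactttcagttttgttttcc

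Xaf1 was the 1 gene of the 8 without the exact pair of GAAA blocks in its window. With 1 mismatch allowed all 8 windows held it, as did 35.4% of all windows, so that looser form separates little. TTCNNNGAA was found in 1 of the 8 windows (Oas1a) and in 8.30% of all windows. GAGGAAGT, a form of the Pu.1 site, was found in none of the 8 and in 3.20% of all windows. Among windows of genes near a cKO H3K4me3 region, by the rule used for the 9 genes, 2.49% of 1970 held the paired GAAA motif, and near a cWT H3K4me3 region 2.73% of 1353. The motif was thus no more frequent near listed H3K4me3 regions as a whole than among all windows.

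H3K4me3 was where most of the listed regions fell. Of the 9 genes, 4 (Ddx58, Xaf1, Oas1a and Stat2) had 1 region each in the cKO list, and none had a region in the cWT list. By the same rule the cKO list covered 8.47% of all protein-coding genes and the cWT list 5.62%. The 4 genes were chosen with this result known, so their count above the background is a description of the choice as well as of the data. All 4 regions lay within 1 kb of the start site, where 66.3% of all cKO H3K4me3 regions lay within 1 kb of some RefSeq start.

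**Figure D1:**
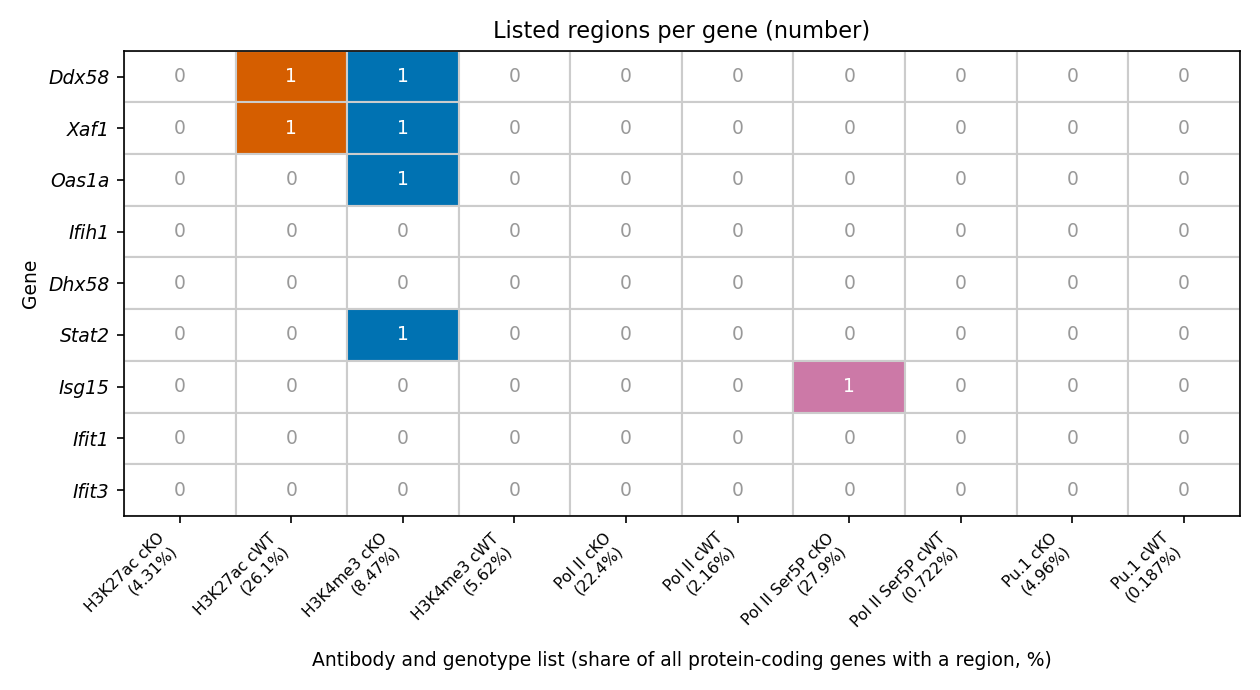
Number of listed regions at each of the 9 genes (rows) in each of the 10 lists of antibody and genotype (columns, with the share of all 21887 protein-coding genes that had a region there). The cKO H3K4me3 column holds 4 genes, the cWT H3K27ac column 2 and the cKO Pol II Ser5P column 1, and the other 7 columns are at 0.

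Ddx58 encodes RIG-I, which recognises RNA with a 5′ triphosphate (gene at chr4:40203777-40239825, minus strand). Its cKO H3K4me3 region, chr4:40239053-40239714, was 662 bp wide and began 111 bp and ended 772 bp downstream of the start. It was wider than or as wide as 91.3% of the regions of its list. Its deposited p-value was 0.920, rank 1125 of 1331 from the smallest, and its deposited signal of 10.3 stood below the median of the list, 15.0.

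Xaf1 encodes an interferon-induced protein that binds the apoptosis inhibitor XIAP (gene at chr11:72301461-72313733, plus strand). Its cKO H3K4me3 region, chr11:72301523-72302062, was 540 bp wide and ran from 106 bp upstream to 433 bp downstream of the start at 72301629. It was the 1 region of the 7 that covered its gene's start. The deposited p-value was 0.931, rank 1225 of 1331, and the signal was 9.07. Xaf1 thus had the lowest signal of the 4 genes.

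Oas1a encodes an oligoadenylate synthetase, which makes the signal that activates RNase L (gene at chr5:120896256-120907544, minus strand). Its cKO H3K4me3 region, chr5:120907042-120907466, was 425 bp wide and lay 59 to 483 bp downstream of the start. The deposited p-value was 0.913, rank 1067 of 1331, and the signal was 10.7. Oas1a belongs to a cluster of near-identical copies, and whether reads at it could come from another copy was not tested. Its neighbour Oas1g had no region in any list.

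Stat2 encodes the STAT that carries ISGF3's activation domain (gene at chr10:128270498-128292853, plus strand). Its cKO H3K4me3 region, chr10:128270526-128270874, was 349 bp wide and lay 28 to 376 bp downstream of the start. This region had the smallest p-value of the 4, 0.639, rank 189 of 1331, and the highest signal, 20.5, at or above 90.0% of its list. The same stretch lies inside the span of Apof, which overlaps the Stat2 start, and a region cannot be credited to one of these genes alone.

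**Figure D2:**
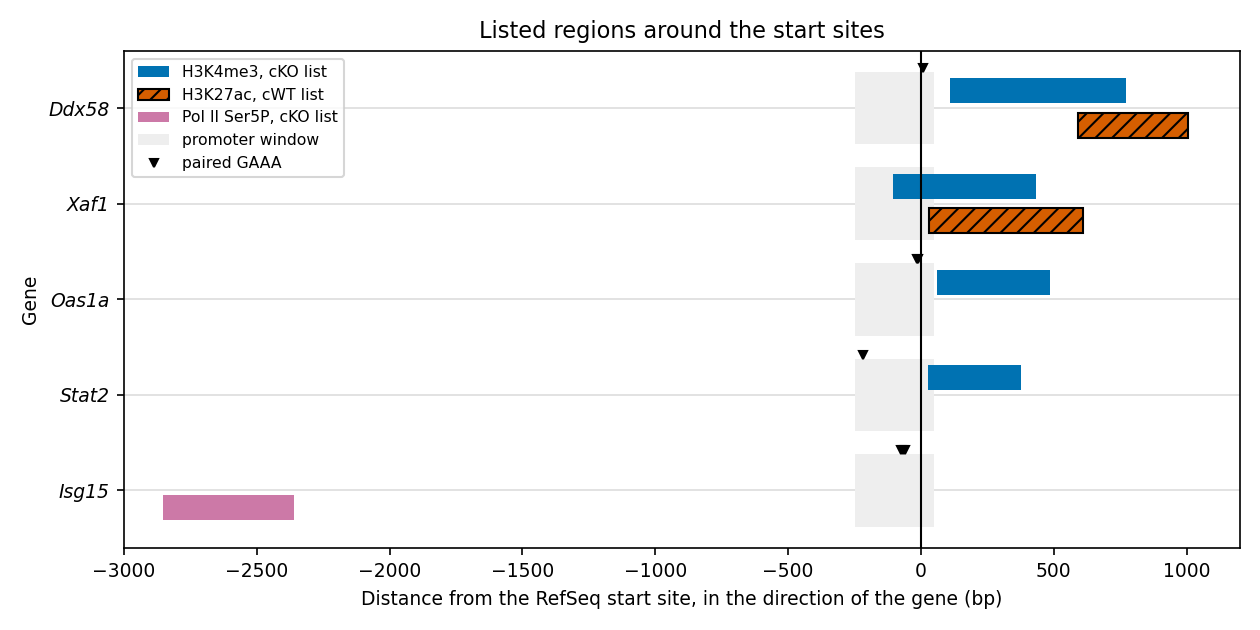
The 7 listed regions at the 5 genes that had one, drawn by distance from the RefSeq start in the direction of the gene (bp; bars are regions, hatched for cWT, grey marks the promoter window, triangles the paired GAAA motif). The 4 cKO H3K4me3 regions lie between -106 and 772 bp, the 2 cWT H3K27ac regions between 32 and 1004 bp, and the Ser5P region at Isg15 over 2 kb upstream.

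H3K27ac regions at these genes were in the opposite list. Ddx58 and Xaf1 had 1 region each in the cWT list, 2 of 9 genes against 26.1% of all protein-coding genes, and none of the 9 had one in the cKO list, against 4.31%. The share of 22.2% is close to the background. The region at Ddx58, chr4:40238821-40239233, was 413 bp wide and lay 592 to 1004 bp downstream of the start, with a deposited p-value of 0.763 (rank 2949 of 6995) and a signal of 12.9. The region at Xaf1, chr11:72301661-72302238, was 578 bp wide and lay 32 to 609 bp downstream, with a p-value of 0.925 (rank 6012 of 6995) and a signal of 10.5.

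At both genes the cWT H3K27ac region overlapped the cKO H3K4me3 region. The shared stretch was 402 bp at Xaf1, 74.4% of the shorter region, and 181 bp at Ddx58, 43.8% of the shorter region. At Oas1a and Stat2 no such pair was found: the nearest cWT H3K27ac region lay 298 kb from Oas1a and 119 kb from Stat2. Such pairs were common in the lists as a whole. Of the 1331 cKO H3K4me3 regions, 205 (15.4%) overlapped a cWT H3K27ac region and 51 (3.83%) a cKO H3K27ac region. Of the 834 cWT H3K4me3 regions, 148 (17.7%) overlapped a cWT H3K27ac region. The cWT H3K27ac list is the longest of the 10, and in all 605 protein-coding genes had H3K4me3 regions in cKO only together with H3K27ac regions in cWT only.

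**Figure D3:**
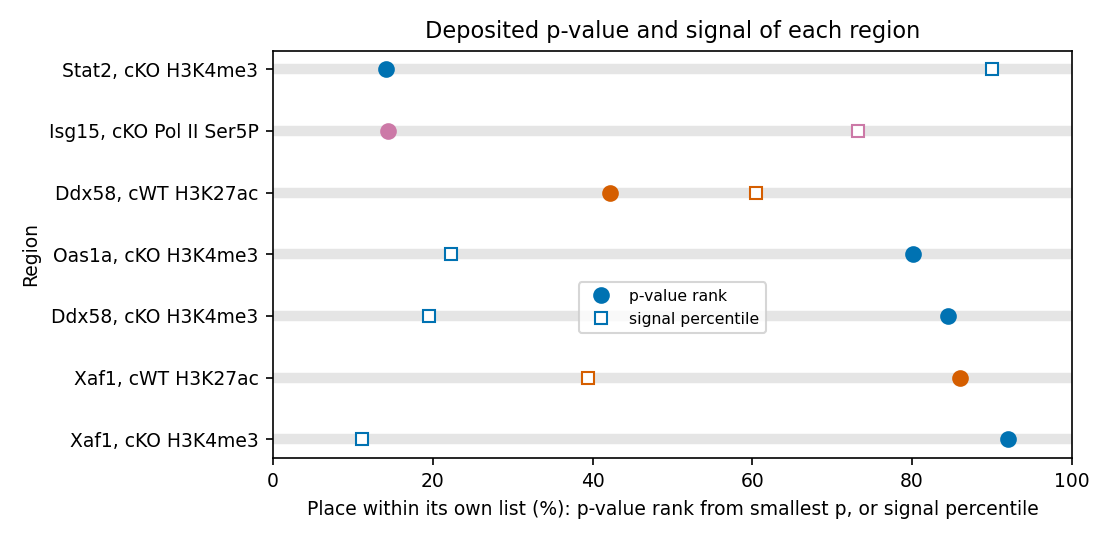
Place of each of the 7 regions within its own list (%): filled circles give the rank of the deposited p-value from the smallest, open squares the percentile of the deposited signal. Regions at Stat2 and Isg15 stand at 14.2% and 14.4% by p-value, and the H3K4me3 regions at Oas1a, Ddx58 and Xaf1 between 80.2% and 92.0%.

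By the authors' own values most of these regions stood low in their lists. None of the 7 had a deposited p-value under 0.05, but few regions of any kind did. In the 3 lists concerned these were 10 of 1331 cKO H3K4me3, 21 of 6995 cWT H3K27ac and 78 of 6163 cKO Ser5P regions. A count of 0 among 7 is close to these small shares. All 7 carry the word secondary in their names, and the share of all regions that do was not counted. Of the 4 H3K4me3 regions, 3 stood beyond the median p-value of their list, 0.853. No source used here says what the deposited p-value tests, so it only ranks regions within a list.

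Polymerase counts were small, and for only 9 genes they were not tested against the shares of all protein-coding genes. No Pol II region lay at any of the 9 genes, in the cKO list (22.4% of all protein-coding genes) or the cWT list (2.16%). The Ser5P cKO list held 1 of the 9 (27.9% of all protein-coding genes) and the cWT list none (0.722%). That gene was Isg15, which encodes a ubiquitin-like protein that is joined to other proteins after interferon (gene at chr4:156199424-156200818, minus strand). Its region, chr4:156203178-156203672, was 495 bp wide, with a p-value of 0.324 (rank 887 of 6163) and a signal of 13.3. It lay upstream, at -2854 to -2360 bp from the Isg15 start, inside the neighbouring gene Perm1, an end of which was only 163 bp from its midpoint. It counts for Isg15 through the 10 kb extension alone, and to which of these genes it belongs cannot be told apart.

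Pu.1 regions were found at none of the 9 genes. The cKO list covered 4.96% of all protein-coding genes and the cWT list, with 44 regions, 0.187%. For 9 genes, a count of 0 is close to either of these small shares. The nearest cKO Pu.1 region lay 60.5 kb from Ddx58, at an end of Aco1, and 235 kb from Dhx58, at an end of Stat3.

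The remaining 4 genes, Ifih1, Dhx58, Ifit1 and Ifit3, had no region in any list. Ifih1 (MDA5, a sensor of long double-stranded RNA, chr2:62595618-62646255) had its nearest regions 17977 bp away in the cWT H3K27ac list and 17991 bp away in the cKO H3K4me3 list, both at an end of Gca. Dhx58 (LGP2, chr11:100694884-100704271) had its nearest region 66.5 kb away, a cWT H3K27ac region at Ghdc. Ifit1 (chr19:34640889-34650009) encodes a protein that binds viral RNA ends, and Ifit3 (chr19:34583119-34588982) encodes a protein of the same family. The region nearest to both was a cKO Pol II region at Lipa, 113 kb from Ifit1 and 55.6 kb from Ifit3. These 2 genes stand in a cluster of similar copies, and whether reads there were lost in mapping was not tested. A gene without a listed region had no region called specific to a genotype, which does not show that the mark was absent or equal.

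**Figure D4:**
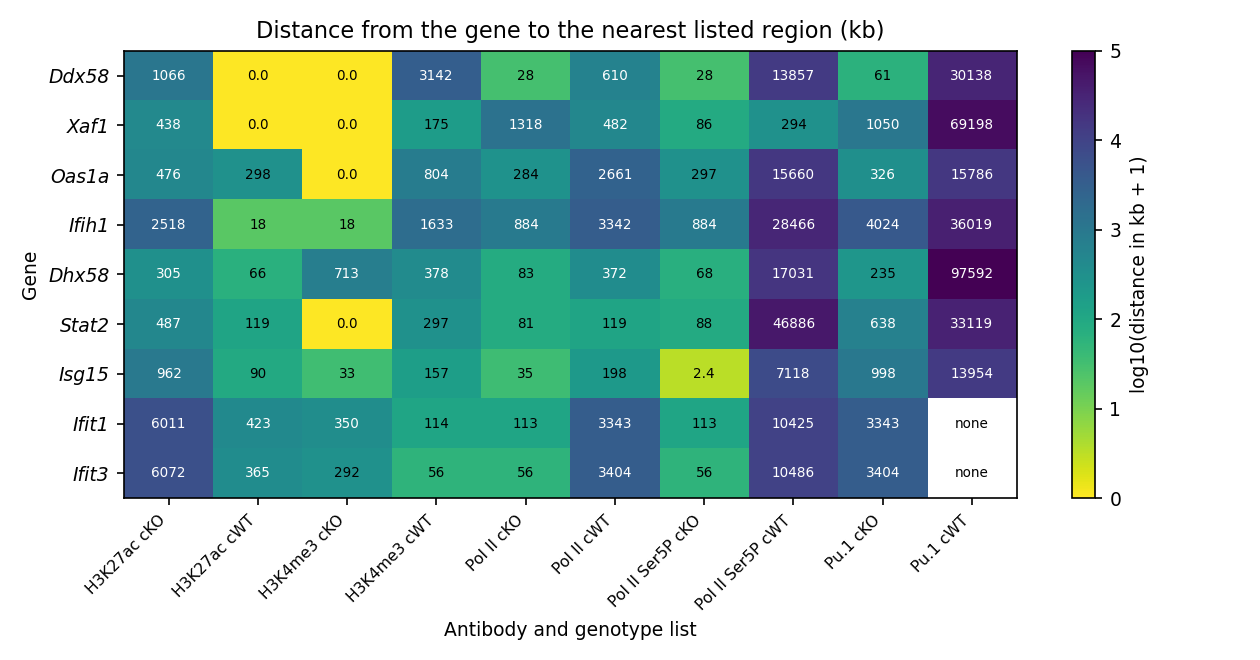
Distance (kb) from each of the 9 genes to the nearest region of each of the 10 lists on the same chromosome, with colour on a log10 scale; none means no region of that list on the chromosome. The 6 cells at 0.0 are the regions inside Ddx58, Xaf1, Oas1a and Stat2, and no distance at Ifit1 is under 113 kb.

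The RIG-I-like receptors differed in what was listed: Ddx58 had 2 regions, between 111 and 1004 bp downstream of its start, and Ifih1 and Dhx58 had none within 10 kb. Of the 5 effectors, Xaf1 had 2 regions, Oas1a and Isg15 had 1 each, and Ifit1 and Ifit3 had none.

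The rest of the pathway was followed in 5 lists of 74 symbols, of which 71 matched a protein-coding gene of the RefSeq table (Mx1, Mx2 and Oas1b did not). For H3K4me3 the cKO list covered 8 of the 71 (11.3%) and the cWT list 3 (4.23%), shares close to the backgrounds of 8.47% and 5.62%. In H3K27ac, 32 of 71 had a region in the cWT list (45.1%, against 26.1% of all protein-coding genes) and 1 in the cKO list, where the background was 4.31%. In the cKO lists, 19 of 71 had a Pol II region (26.8%, against 22.4%), 28 a Ser5P region (39.4%, against 27.9%) and 10 a Pu.1 region (14.1%, against 4.96%). The cWT lists of Pol II and Ser5P held 1 each and that of Pu.1 none.

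**Figure D5:**
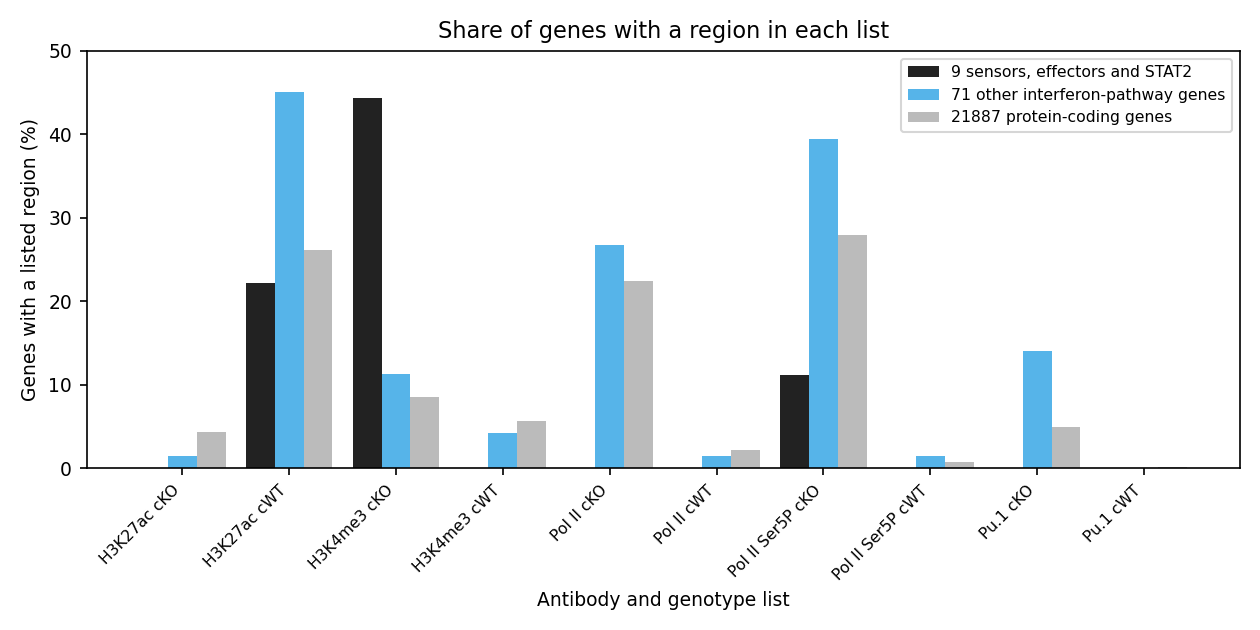
Share of genes (%) with a listed region in each of the 10 lists for the 9 genes (black), 71 other interferon-pathway genes (blue) and all 21887 protein-coding genes (grey). The 9 genes stand at 44.4% in cKO H3K4me3 and at 0 in both Pol II lists; the choice of the 9 was made with these lists known.

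Upstream of the 9 genes, all 7 receptor and kinase genes had a Ser5P region in the cKO list and 6 a Pol II region there, where 27.9% and 22.4% of all protein-coding genes did. Jak1, a kinase of the type I and type II interferon receptors, had regions in 5 lists, and Ifnar1, a chain of the type I receptor, in 4. Ifnar2, the other chain, had 5 Ser5P, 2 Pol II and 1 Pu.1 region, all in cKO lists. Ifngr1 had 1 region each in cWT H3K27ac, cKO Ser5P and cKO Pu.1. Some of these regions were counted only because the gene's end was the nearest. The cWT H3K27ac regions lay 44708 bp from Ifngr1 and 28505 bp from Ifnar1. The Pu.1 region of Ifnar2 lay 17234 bp from that gene, and 1 of its 5 Ser5P regions 26780 bp from it. Both H3K4me3 regions of Jak1 lay outside the gene, at 27098 and 27651 bp, as did its cWT Ser5P region, at 27640 bp. No Pol II or Ser5P region of Ifnar1 overlapped the gene. Its Pol II regions lay 8745 and 19859 bp away and its Ser5P regions 11613 and 19826 bp away. Each of the other receptor and kinase genes had a cKO Ser5P region that overlapped the gene.

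Among the adaptors and kinases next to the sensors, 8 of 12 had a Ser5P region, 6 a Pol II region and 2 an H3K4me3 region in the cKO lists, and 7 an H3K27ac region in the cWT list. The shares of all protein-coding genes were 27.9%, 22.4%, 8.47% and 26.1% in the same order. Mavs, the adaptor of RIG-I and MDA5, had 1 region each in cKO H3K4me3, Pol II and Ser5P and in cWT H3K27ac, all at its start. Cgas, a sensor of cytoplasmic DNA, had regions within the gene in the same 4 lists. A further H3K4me3 and a further Pol II region lay 5083 and 5069 bp outside it. Trim25 and Rnf135, ubiquitin ligases of RIG-I, had regions in 3 lists each. The cWT H3K27ac region of each overlapped the gene, as did a Ser5P region of Rnf135. The Ser5P and Pu.1 regions of Trim25 lay 3894 and 3972 bp outside. The Pol II region and another Ser5P region of Rnf135 lay 9250 and 8955 bp outside.

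Irf9, the DNA-binding partner in ISGF3, had 1 region only, in the cKO H3K4me3 list like Stat2, inside the gene at chr14:55604138-55604443 (306 bp, p-value 0.821, signal 15.2). Stat4 had 1 region each in the cWT H3K27ac and the cKO Ser5P list, and Stat6 had 2 Ser5P and 1 Pu.1 region in the cKO lists. All of these lay outside the genes. The Stat4 regions were 6180 and 6294 bp away. For Stat6 the Ser5P regions were 569 and 10492 bp away and the Pu.1 region 10691 bp away.

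Of 37 other interferon-induced effectors, 19 had a region in some list, where 49.6% of all protein-coding genes did. Their H3K4me3 regions fell in both genotypes, with Ifi35, Nmi and Rtp4 in the cKO list and Bst2, Irgm1 and Oasl1 in the cWT list (named beside the rule after their values were seen, but for Ifi35, Bst2, Nmi and Rtp4). The regions of Nmi and Rtp4 lay within the gene, that of Oasl1 401 bp from it, and those of Bst2, Ifi35 and Irgm1 5407, 7134 and 9340 bp from it. Ifi35 had 7 regions in 4 lists, all cKO, of which 2 (1 Pol II and 1 Ser5P) lay within the gene. Ifi204 had 5 and Bst2 and Igtp 2 each. Those of Bst2 and Igtp lay outside the gene, as did those of Ifi204 except for a Ser5P region. Of 8 feedback inhibitors, 6 had a region in some list. Pias1 had 7 regions, Ptpn6 had 6, Socs3 had 5 and Ptpn2 had 2. All 5 regions of Socs3 lay outside the gene, from 2277 to 18956 bp away. Usp18, which removes ISG15 from proteins, had 1 region, in the cKO H3K4me3 list, 1442 bp outside its span.

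Likeness was taken as agreement over the 10 lists, counting a list where both genes had or both lacked a region. Ddx58 and Xaf1 were alike in all 10, and 200 protein-coding genes were so with Ddx58, Xaf1 and, of the pathway lists, Nmi and Rtp4 among them. At Nmi the cKO H3K4me3 region, chr2:51972727-51973108, lay within the cWT H3K27ac region at chr2:51972141-51973343, as the overlapping pairs at Ddx58 and Xaf1 did in part. Oas1a and Stat2, with H3K4me3 in the cKO list alone, had the same pattern as each other and as Irf9 and Usp18; each of them had 370 genes with an equal pattern. Isg15 shared its pattern with 1095 genes, Tbk1 among them. These patterns are common, and the lists share no values that would rank the genes within them.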

How the data were processed

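CUT&Tag was done for 5 antibodies in cKO and cWT microglia. Per the submitters' processing notes the tools were HOMER 4.11, bedtools 2.30.0, MACS2 2.2.7.1 and Bowtie2 2.4.4, with GRCm38 and mm10 as builds; no source used here says how replicates were combined or regions became genotype-specific. Each deposited line holds a position, a score, a signal of unstated scale, a p-value and its adjusted form (not used), all the authors' own. The deposited score was not used further; the deposited signal and p-value were compared within a list only. Positions are counted from 1.

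Gene spans were taken from RefSeq for GRCm38.p6 (49943 placed genes) and starts and sequences from its promoter table. Regions were assigned by the rule given above, and the same rule over all protein-coding genes gave the background. Lists, motifs and members were chosen with earlier results of these data known. Named pathway genes are up to 4 per list, those with regions in the most lists, with the genes alike over all 10 lists; 1 gene that this rule names is not reported here. Alternatives changed the assignment, region width, p-value and overlap. The assignment was tested on simulated data. Python 3.11.15, numpy 2.4.6, pandas 2.3.3 and matplotlib 3.10.9 were used.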

Additional observations from a re-analysis of the deposited data

How the results depend on the processing

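With the 50% of each list that had the smaller deposited p-values, 1 of the 9 genes kept a cKO H3K4me3 region (Stat2), 1 a cWT H3K27ac region (Ddx58), and 3 regions remained in all. Of all protein-coding genes 4.3% and 17.3% then had a cKO H3K4me3 and a cWT H3K27ac region. With p-values under 0.05, an alternative added after seeing the data, 0 genes had a region in the cKO H3K4me3, cWT H3K27ac or cKO Ser5P list and 0 regions remained. The shares of all protein-coding genes were 0.0503%, 0.119% and 0.525% in the same order. The Ser5P count fell to 0 with the nearest gene end alone, since the Isg15 region is nearest to Perm1, and with gene spans not extended, since it lies 2360 bp outside the Isg15 span. By these rules 20.4% and 18.3% of all protein-coding genes had a cKO Ser5P region. With spans extended by 50 kb, also added, 2 of the 9 genes each had a cKO Pol II and a cKO Ser5P region (Ddx58 and Isg15). The shares of all protein-coding genes were 37.4% and 44.3%. The cKO H3K4me3 count was then 6 (with Ifih1 and Isg15), where the share was 16.3%. For cWT H3K27ac it was 3 (with Ifih1), where the share was 43.1%. There were 16 regions in all. With an overlap of at least 50% of the shorter region, 1 overlapping pair remained (Xaf1). Regions of at least 300 bp and spans extended by 10 kb alone moved no count by over 1.5 times. No paired analysis was possible because the lists hold no value per replicate. The lists give no depth, so what depth limits cannot be stated.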

Other observations

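Beside Ifih1, the gene Gca, which encodes the calcium-binding protein grancalcin, had a pair of regions like those at Ddx58 and Xaf1. Its cWT H3K27ac region, chr2:62664232-62664403, and its cKO H3K4me3 region, chr2:62664246-62664602, shared 158 bp at an end of the Gca span, either its start or its 3′ end. The H3K4me3 region had a deposited p-value of 0.432, rank 80 of 1331, further up its list than any of the 4 H3K4me3 regions described above.

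Oasl1, which encodes an interferon-induced protein of the oligoadenylate synthetase family, stood high in the other genotype's list. Its cWT H3K4me3 region, chr5:114922298-114922742, lay upstream, at -942 to -498 bp from the start. The deposited p-value was 0.00113, rank 3 of 834, with a signal of 39.9 against a list median of 15.8. Oas1a, of the same family, was in the cKO list at rank 1067 of 1331. Ranks from lists of different lengths give no change between genotypes. Both genes were singled out after their values were seen.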
